A study of Mus musculus with 8 samples.

Results

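The transcription factor NRF2, encoded by Nfe2l2, and 9 known NRF2 target genes, most of them of thiol redox metabolism, were examined in mouse aortic tissue by mRNA sequencing. The 10 genes were taken by symbol from a deposited table of 13839 genes: Nfe2l2, Slc7a11, Gclc, Gclm, Srxn1, Txnrd1, Nqo1, Gsr, Prdx1 and Osgin1. Each symbol matched 1 row, and all 10 passed the filter on low counts, which left 13701 genes. The 3 libraries labelled TAD (thoracic aortic dissection) came from mice given β-aminopropionitrile monofumarate, a lysyl oxidase inhibitor, in their drinking water. The daily dose was 1 g/kg, the age at the start was 3 weeks and the course lasted 4 weeks. At 7 weeks an osmotic mini pump delivering angiotensin II at 1 μg/kg per min was implanted, and the tissue was taken 24 h later. The 5 control libraries are labelled as control aortic tissue, and the sources used here give neither the treatment of those mice nor the strain or sex of any. Whether each library is a separate mouse is also not stated, so a p-value covers the variation among libraries, which may be technical.

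NRF2 is a leucine zipper factor whose protein is held low by KEAP1, the substrate adaptor of a CUL3 and RBX1 ubiquitin ligase. Oxidants and electrophiles modify cysteines of KEAP1, NRF2 then accumulates, pairs with a small MAF protein and binds the antioxidant response element (ARE) near its target genes, where BACH1 can act as a repressor. Its targets import cystine, make and reduce glutathione, reduce thioredoxin and supply NADPH to both systems. Since NRF2 is regulated largely through its protein, the mRNA of Nfe2l2 is no measure of its activity.

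The ARE core was looked for in promoter sequence to show which of the genes carry these letters close to their start. RefSeq (GRCm38.p6) gave 10 promoter windows for 8 of the 10 genes, 3 of them for Txnrd1. The core was spelled TGACNNNGC or TGAGNNNGC, on either strand, within the 250 bases upstream of the start. It occurred in 7 of the 10 windows (70.0%), that of Nfe2l2 included, against 23.0% of the 32851 mouse promoter windows of the same length. Since the set is made of NRF2 and known NRF2 targets, this share describes the set and tests nothing. The Nqo1 window and both other windows of Txnrd1 held no match, and 20 bases from the start of the Nfe2l2 window were not found in a GENCODE transcript of that gene, so its match is not shown. To show the letters themselves, the stretches of 5 genes are printed 5′ to 3′ on the gene's strand, with the matches in capitals: Srxn1 at chr2:152105346-152105507 (plus strand), Gclm at chr3:122245403-122245451 (plus), Prdx1 at chr4:116685446-116685494 (plus), Osgin1 at chr8:119437028-119437076 (plus) and Txnrd1 at chr10:82859094-82859142 (plus).
Srxn1: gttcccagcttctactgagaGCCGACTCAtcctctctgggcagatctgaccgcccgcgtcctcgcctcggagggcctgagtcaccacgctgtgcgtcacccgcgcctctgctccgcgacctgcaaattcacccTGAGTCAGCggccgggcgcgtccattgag
Gclm: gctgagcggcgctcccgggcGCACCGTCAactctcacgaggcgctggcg
Prdx1: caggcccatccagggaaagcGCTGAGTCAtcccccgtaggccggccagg
Osgin1: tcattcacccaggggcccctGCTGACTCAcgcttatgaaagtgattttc
Txnrd1: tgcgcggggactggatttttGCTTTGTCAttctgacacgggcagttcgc

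In Srxn1 the first match began at -158 and the other ended at -37, counted from the start. The matches of Prdx1 and Osgin1 and the one nearest the start in Srxn1 overlap TGANTCA, the letters of an AP-1 site, which 6.75% of all promoters hold. The Slc7a11 window carried the ARE letters once (chr3:50443682-50443730, minus strand), and also TGATGCAA in both directions, the letters of an ATF4 response element. That motif was chosen after the sequence was read, and it occurred in 0.791% of all promoters. The stretch is shown because ATF4 is known as another inducer of Slc7a11 (chr3:50443633-50443699, minus strand).
Slc7a11, ARE letters in capitals: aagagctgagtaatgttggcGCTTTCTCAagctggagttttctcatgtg
Slc7a11, ATF4 letters in capitals: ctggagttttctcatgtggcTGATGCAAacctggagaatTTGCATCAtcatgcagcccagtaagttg

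A match of letters is a description of the sequence and no evidence of binding.

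In TAD aorta 7 of the 10 genes rose, none fell and 3 were not called, by edgeR's quasi-likelihood test adjusted over all tested genes at a threshold of 0.05. Over all 13701 genes, 15.2% were called higher and 27.0% in either direction. The 7 that rose were the cystine transporter Slc7a11, glutathione reductase Gsr, Osgin1, sulfiredoxin Srxn1, both subunits of glutamate-cysteine ligase (Gclm and Gclc) and thioredoxin reductase Txnrd1. Of all 3705 calls 56.2% were higher in TAD, and 36.6% of the 2579 made by limma on log2(TPM + 1), where TPM is transcripts scaled to a fixed sum per library. Peroxiredoxin Prdx1, Nfe2l2 itself and the quinone reductase Nqo1 were not called. Of the 10, 6 were called and at least 2-fold higher (8.36% of all genes). Every TAD library exceeded every control in CPM (counts scaled to TMM-adjusted library size) for 7 of the 10, against 16.9% of all genes, and for none did every TAD library lie below every control (15.0% of all genes). The median log2 fold change was 1.20 over the 10 genes and 0.04 over all tested genes.

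**Figure D1:**
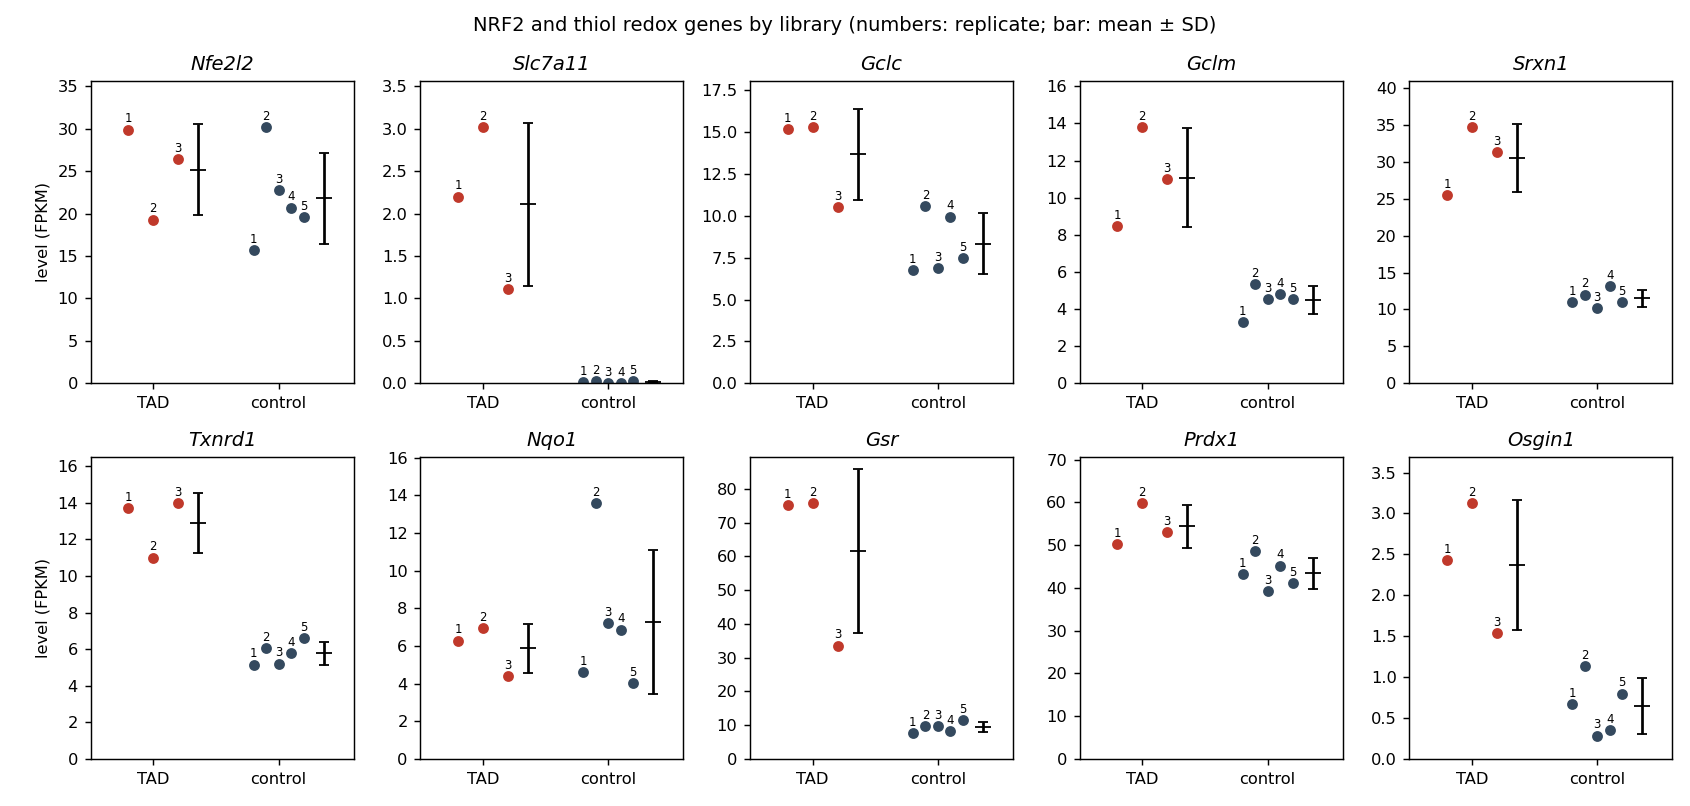
Level of each of the 10 genes (FPKM, fragments scaled to gene length and library depth, linear axes from 0) in the 3 TAD libraries (red, left) and the 5 control libraries (dark, right), with the replicate number above each point and the mean ± SD as a bar. Slc7a11 lies at 1.11 to 3.02 FPKM in TAD and at or below 0.0284 FPKM in control, while Nfe2l2 and Nqo1 overlap between groups.

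**Figure D2:**
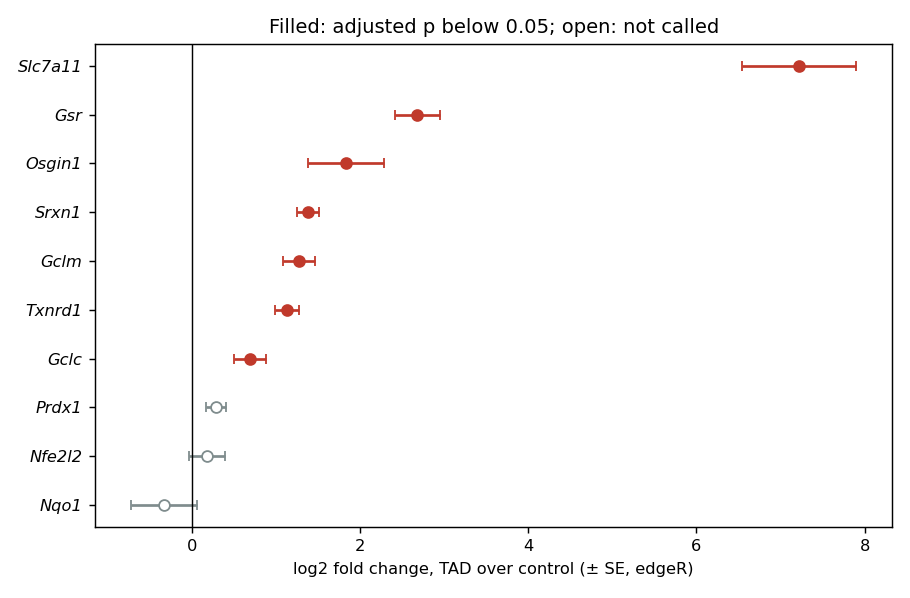
Log2 fold change of TAD over control for the 10 genes with its standard error (edgeR); filled points have an adjusted p below 0.05. The values run from -0.33 for Nqo1 to 7.22 for Slc7a11.

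The mRNA of the factor itself did not differ detectably. Nfe2l2 (ENSMUSG00000015839, GRCm38 chr2:75675513-75704641, minus strand) stood at 29.9, 19.3 and 26.4 FPKM in TAD 1, 2 and 3, against 15.7, 30.2, 22.8, 20.7 and 19.6 FPKM in controls 1 to 5. The groups overlapped, and the highest value of all was control 2. The fold change was 0.18 ± 0.21 on the log2 scale (SE; adjusted p = 0.56 by edgeR). It was -0.05 without control 1 and TAD 1, the libraries richest in heart muscle mRNA.

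Slc7a11 codes for xCT, the light chain that exchanges extracellular cystine for glutamate and so feeds glutathione synthesis. The gene (ENSMUSG00000027737, GRCm38 chr3:49892526-50443614, minus strand) was barely detected in control aorta. It had 477, 822 and 300 counts in TAD 1, 2 and 3, against 3, 5, 1, 0 and 7 counts in controls 1 to 5. That is 2.11 ± 0.961 FPKM in TAD (SD, n = 3) and 0.0132 ± 0.0118 FPKM in control (SD, n = 5). The ratio of mean CPM was 154, and the fitted log2 fold change was 7.22 ± 0.68 (edgeR adjusted p = 0.000409). With only 16 counts over all 5 controls the size of this fold rests on few reads. Even in TAD it was the lowest of the 10 genes per length, with a range that overlapped that of Osgin1.

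Slc3a2 codes for the heavy chain that carries xCT to the membrane, where it also partners other light chains. It stood at 26.2, 17.9 and 15.7 FPKM in TAD 1, 2 and 3, against 7.79, 6.18, 7.17, 11.0 and 8.63 FPKM in controls 1 to 5. On the log2 scale it was higher by 1.26 ± 0.22 (edgeR adjusted p = 0.00417), so both chains rose. The FPKM ratio of Slc7a11 to Slc3a2 was 0.0705 to 0.169 in TAD and 0.000184 to 0.00341 in control, where the 0 of control 4 was set to 0.5 reads. The difference of the log2 ratio, TAD minus control, was 6.46, with an exact two-sided permutation p of 0.0179. This is the smallest p that 3 libraries against 5 allow, and it was 0.0357 after adjustment over the 4 ratios tested.

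Glutamate-cysteine ligase makes the first and rate-limiting bond of glutathione; Gclc is its catalytic and Gclm its modifier subunit. Gclm (ENSMUSG00000028124, GRCm38 chr3:122245557-122270732, plus strand) had 8.45, 13.8 and 11.0 FPKM in TAD 1, 2 and 3, against 3.30, 5.36, 4.53, 4.79 and 4.54 FPKM in controls 1 to 5. All TAD libraries lay above all controls. On the log2 scale Gclm was higher by 1.27 ± 0.19 (edgeR adjusted p = 0.00202). Other gene models cover 4.71% of its exon bases, on both strands. Gclc (ENSMUSG00000032350, GRCm38 chr9:77754535-77794485, plus strand) had 15.2, 15.3 and 10.5 FPKM in TAD 1, 2 and 3, against 6.75, 10.6, 6.88, 9.95 and 7.48 FPKM in controls 1 to 5. TAD 3 fell just under control 2, so the groups touched. The log2 fold change was 0.69 ± 0.19 (edgeR adjusted p = 0.0276). Gclc was no longer called without TAD 1, TAD 2 or control 1, 3 or 5, when 1 of these was left out (0.59 to 0.66 on the log2 scale, with edgeR adjusted p between 0.0544 and 0.0968). Leaving out control 1 with TAD 1 ended the call too (0.55, edgeR adjusted p = 0.148), as did leaving out TAD 2 with controls 1 and 2 (0.62, edgeR adjusted p = 0.0948). It was not called by limma on log2(TPM + 1) (0.52, adjusted p = 0.194).

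The balance of the subunits was not shown to differ. The Gclm to Gclc ratio of FPKM was 0.557, 0.905 and 1.05 in TAD 1, 2 and 3, against 0.489, 0.507, 0.659, 0.482 and 0.607 in controls 1 to 5. TAD 1 lay within the controls and the other two above them. The difference of the log2 ratio was 0.57 (exact two-sided permutation p = 0.0714, adjusted p = 0.0952).

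Gsr, which returns oxidised glutathione to its reduced form with NADPH, had the largest change of the 10 genes after Slc7a11. The gene (ENSMUSG00000031584, GRCm38 chr8:33652523-33698163, plus strand) had 75.2, 75.9 and 33.6 FPKM in TAD 1, 2 and 3, against 7.72, 9.80, 9.62, 8.15 and 11.4 FPKM in controls 1 to 5. Its log2 fold change was 2.68 ± 0.27 (edgeR adjusted p = 0.00052), or 6.43-fold in mean CPM. In control, Gsr averaged 9.34 FPKM and ranked below Prdx1, Nfe2l2 and Srxn1, with a range that overlapped those of Srxn1 and Gclc. In TAD it had the highest mean, 61.6 FPKM, though its range overlapped that of Prdx1. Within TAD the level of TAD 3 was less than that of the other libraries by over 2-fold.

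Markers of myeloid cells were also higher in TAD. The 10 neutrophil markers summed to 1430, 1180 and 483 CPM in TAD 1, 2 and 3, against 16.0 to 168 CPM in control, and 7 of the 10 were called higher. The other 3 were not called: Ngp had 2.82 ± 1.61 on the log2 scale, Ltf -0.79 ± 1.24 and Camp -1.76 ± 1.44. The 10 macrophage and monocyte markers summed to 1430, 1190 and 1450 CPM in TAD 1, 2 and 3, against 285 to 574 CPM in control, and 8 were called higher. Adgre1 (0.47 ± 0.32 on the log2 scale) and Csf1r (0.72 ± 0.26) were not called. Markers of this list differed in their order within TAD. Itgam, Fcgr1, Tyrobp and Ccr2 were lowest in TAD 3, as Gsr was. Cd68, Adgre1, Csf1r, Lyz2, Mrc1 and Cd14 were lowest in TAD 2. Lyz2 had by far the highest FPKM of the list, at 367, 347 and 533 FPKM in TAD 1, 2 and 3, so the sum hides this difference. No marker of either list was at 0 in all libraries, and Mmp8, Ngp and Camp were at 0 in 1 or 2 libraries. The part of these cells in the change of Gsr and the other genes was not tested, and in tissue of mixed cells a change in cell number and a change in mRNA per cell cannot be told apart.

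In the thioredoxin arm Txnrd1 and Srxn1 rose and Prdx1 was not called. Txnrd1 codes for the cytosolic selenoenzyme that reduces thioredoxin with NADPH. It (ENSMUSG00000020250, GRCm38 chr10:82833951-82897712, plus strand) had 13.7, 11.0 and 14.0 FPKM in TAD 1, 2 and 3, against 5.16, 6.05, 5.21, 5.80 and 6.62 FPKM in controls 1 to 5. Txnrd1 was higher by 1.13 ± 0.14 on the log2 scale (edgeR adjusted p = 0.000984). Txnrd2, its mitochondrial counterpart, fell, at 0.863, 1.02 and 1.49 FPKM in TAD 1, 2 and 3, against 2.05, 1.57, 1.63, 2.39 and 2.38 FPKM in controls 1 to 5. Its log2 fold change was -0.87 ± 0.23 (edgeR adjusted p = 0.0262). The call of Txnrd2 was lost without TAD 1, TAD 2 or control 1, 4 or 5 (-0.84 to -0.72 on the log2 scale, with edgeR adjusted p between 0.0507 and 0.0962).

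The Txnrd1 to Txnrd2 ratio of FPKM was 9.41 to 15.9 in TAD and 2.43 to 3.87 in control, without overlap. The difference of the log2 ratio was 2.01, a 4.02-fold larger ratio (exact two-sided permutation p = 0.0179, the smallest possible; adjusted p = 0.0357). This ratio does not depend on how the libraries are scaled.

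Srxn1 codes for sulfiredoxin, which repairs peroxiredoxins whose active cysteine was overoxidised by peroxide. It (ENSMUSG00000032802, GRCm38 chr2:152105516-152111376, plus strand) had 25.5, 34.7 and 31.3 FPKM in TAD 1, 2 and 3, against 11.0, 12.0, 10.2, 13.2 and 11.0 FPKM in controls 1 to 5. The controls were close together, with a coefficient of variation of 6.53% in CPM. The log2 fold change was 1.38 ± 0.13 (edgeR adjusted p = 0.000368). Prdx1, a substrate of sulfiredoxin that reduces hydrogen peroxide, differed less. The gene (ENSMUSG00000028691, GRCm38 chr4:116685544-116700822, plus strand) had 50.3, 59.9 and 53.0 FPKM in TAD 1, 2 and 3, against 43.2, 48.6, 39.2, 45.2 and 41.1 FPKM in controls 1 to 5. All TAD libraries lay above all controls, but by little. The log2 fold change of 0.29 ± 0.12 was not called by edgeR (adjusted p = 0.114), and DESeq2 called it (0.28, adjusted p = 0.0457).

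Prdx2, the cytosolic paralog of Prdx1, averaged 18.9 ± 4.31 FPKM in TAD (SD, n = 3) and 13.9 ± 2.96 FPKM in control (SD, n = 5), a log2 difference of 0.40 ± 0.22 (edgeR adjusted p = 0.20). Genes on the opposite strand cover 11.5% of its exon bases. The Prdx1 to Prdx2 ratio of FPKM was 2.52 to 3.75 in TAD and 2.35 to 3.87 in control, a difference of -0.11 in the log2 ratio (exact two-sided permutation p = 0.625, also after adjustment).

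**Figure D3:**
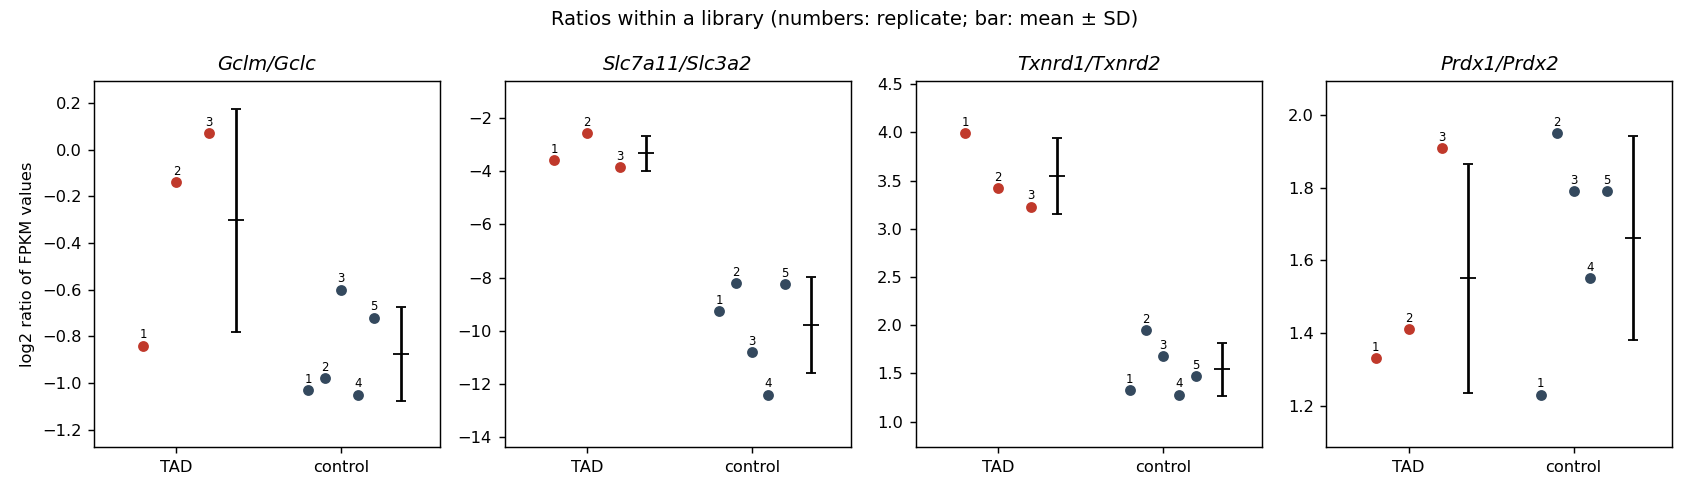
Log2 ratio of the FPKM values of 2 genes within each library, for 3 TAD (red, left) and 5 control libraries (dark, right), with replicate numbers and the mean ± SD as a bar. The groups are apart for Slc7a11/Slc3a2 and Txnrd1/Txnrd2 and overlap for Gclm/Gclc and Prdx1/Prdx2; the vertical axes differ between panels.

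Osgin1, an oxidative stress gene whose product restrains growth, rose but remained among the lowest of the 10 genes per length. It (ENSMUSG00000074063, GRCm38 chr8:119434124-119446256, plus strand) had 2.43, 3.13 and 1.54 FPKM in TAD 1, 2 and 3, against 0.674, 1.13, 0.284, 0.354 and 0.797 FPKM in controls 1 to 5. The controls varied by 52.3% (coefficient of variation in CPM), and still lay below all TAD libraries. The log2 fold change was 1.83 ± 0.45 (edgeR adjusted p = 0.0184). The call was lost without TAD 1 (1.80, edgeR adjusted p = 0.053), without TAD 2 (1.57, adjusted p = 0.0519) and without both control 1 and TAD 1 (1.85, adjusted p = 0.0871).

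Nqo1, which reduces quinones and is widely used as a readout of NRF2, was not called. It (ENSMUSG00000003849, GRCm38 chr8:107388225-107403206, minus strand) had 6.28, 6.94 and 4.40 FPKM in TAD 1, 2 and 3, against 4.61, 13.6, 7.23, 6.87 and 4.04 FPKM in controls 1 to 5. Every TAD library lay within the range of the controls, and control 2 was the highest of all libraries by far. The log2 difference was -0.33 ± 0.39 (edgeR adjusted p = 0.568), from 86 to 279 counts per library in control and at least 103 in TAD. Without control 2 it was 0.00 (adjusted p = 0.993), so its sign rests on that library.

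Among the TAD libraries, TAD 2 had the highest CPM of the 3 in 6 of the 7 genes that rose. The exception was Txnrd1, for which it was the lowest. For Gsr (285 CPM, against 279 CPM in TAD 1) and Gclc (72.3 CPM, against 71.2 CPM in TAD 1) the lead was slight. TAD 3 was the lowest in 4 of the 7 and TAD 1 in 2. TAD 2 was also the TAD library with the least Nfe2l2, at 19.3 FPKM. The 5 other genes closest in pattern to the mean of the 10 were Cinp, F13a1, Mettl1, Fam107b and Sema4a, with Pearson correlations of 0.9877 to 0.9949 over 8 libraries, among 10292 genes with a mean of at least 1 FPKM. These 8 points fall into the 2 groups, and the group difference enters each correlation. F13a1 had a log2 fold change of 1.63 ± 0.22 and Sema4a of 1.68 ± 0.24, while Cinp, the closest, had 0.25 ± 0.11 and was not called (edgeR adjusted p = 0.128).

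Among regulators and partners of NRF2, 4 of 13 genes rose, 1 fell and 8 were not called, with a median log2 fold change of 0.32. The shares were 30.8% higher and 7.69% lower, against 15.2% and 11.8% of all tested genes. The 5 calls of this list fell to 2 without TAD 1 or control 5, to 3 without TAD 2 or control 1, 2 or 3, and to 0 without both control 1 and TAD 1. Maff, a small MAF partner, rose to 4.34 ± 2.03 FPKM in TAD (SD, n = 3), against 1.31 ± 0.466 FPKM in control (SD, n = 5), or 1.69 ± 0.37 on the log2 scale (edgeR adjusted p = 0.0119). That call was lost without control 1 and TAD 1 (1.5, edgeR adjusted p = 0.0761). The repressor gene Bach1 rose by 0.68 ± 0.17 (adjusted p = 0.0207) and Rbx1, of the ligase that degrades NRF2, by 0.47 ± 0.14 (adjusted p = 0.0417). Nfe2l1, which codes for the related factor NRF1, fell, with -0.69 ± 0.15 (adjusted p = 0.00985). Keap1, chosen after its values were seen, had 3.41 ± 0.559 FPKM in TAD and 3.54 ± 0.351 FPKM in control and was not called (-0.09 ± 0.14, edgeR adjusted p = 0.679). A gene on the opposite strand covers 10.9% of its exon bases. The call of Rbx1 was lost when any single library other than TAD 3 was left out (0.29 to 0.50, adjusted p between 0.0538 and 0.117). That of Bach1 was lost without control 5 (0.65, adjusted p = 0.0508), TAD 1 (0.52, adjusted p = 0.0931) or TAD 3 (0.63, adjusted p = 0.0552).

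Other known NRF2 targets split in both directions. Of 27 tested, 6 rose, 8 fell and 13 were not called (median log2 fold change -0.24; 3 more listed genes were not analysed here). Thus 22.2% were higher and 29.6% lower, against 15.2% and 11.8% of all tested genes. Hmox1, which codes for the heme-degrading oxygenase, rose to 495, 478 and 206 FPKM in TAD 1, 2 and 3, against 4.05 to 5.57 FPKM in control, or 6.31 ± 0.32 on the log2 scale (edgeR adjusted p = 7.89e-05). The iron storage genes Ftl1 (1.20 ± 0.21) and Fth1 (1.13 ± 0.19), chosen after their values were seen, also rose (edgeR adjusted p of 0.00426 and 0.0037). Ftl1 has pseudogenes, and other gene models cover 34.6% of its exon bases, so its counts are uncertain. Red cell markers were also higher in TAD. The 8 markers summed to 31100 to 77300 CPM in TAD and 1610 to 7530 CPM in control. Of these 7 were called higher and none was at 0. Within control their sum was highest in control 3, where Ftl1 was lowest. The part of red cells in the rise of Hmox1, Ftl1 and Fth1 was not tested. Ugdh, of UDP-glucuronate synthesis, rose by 1.74 ± 0.39 (adjusted p = 0.0119), a call lost without TAD 1 (1.5, adjusted p = 0.052). The genes that fell included the pentose phosphate enzyme gene Tkt (-2.33 ± 0.36) and the glutathione transferase gene Gsta4 (-1.73 ± 0.48). Gsta4 was no longer called without TAD 2, TAD 3, control 1 or control 4 (-1.77 to -1.39, adjusted p of 0.0528 to 0.0728).

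**Figure D4:**
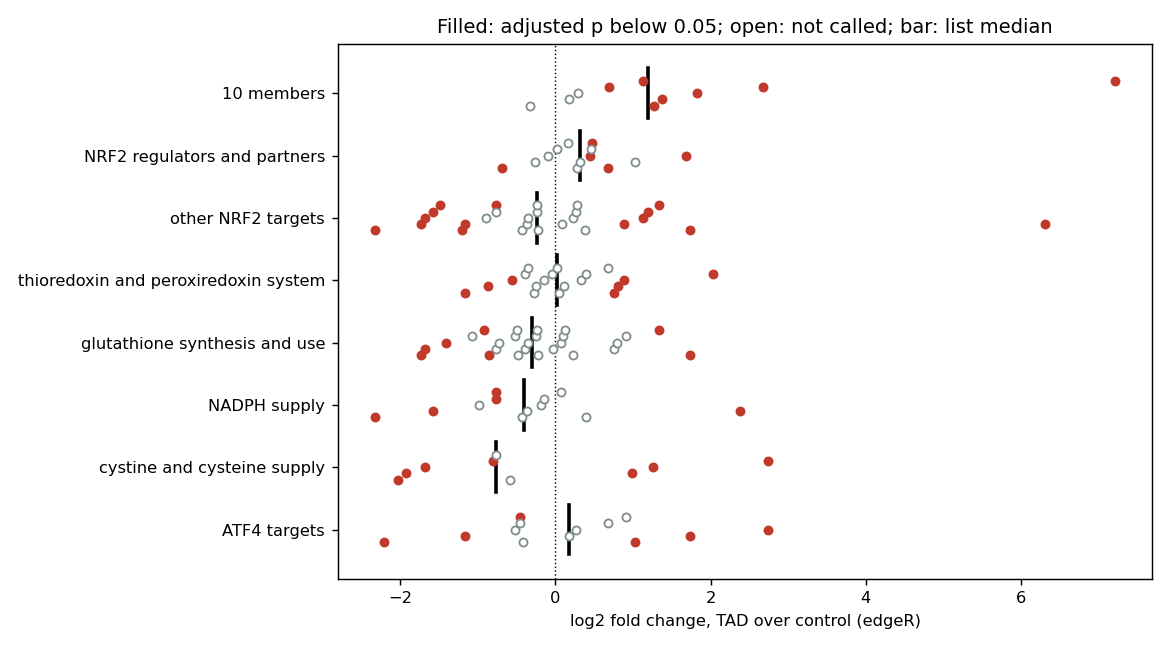
Log2 fold changes (TAD over control, edgeR) of the 10 genes and of the tested genes of 7 related lists, 1 point a gene; filled points have an adjusted p below 0.05 and the black bar is the list median. The median is 1.20 for the 10 genes and lies between -0.76 and 0.32 in the other lists, some of which share genes.

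NADPH is the electron donor of both Gsr and Txnrd1. Of 12 tested genes of NADPH supply, 1 rose, 4 fell and 7 were not called (median log2 fold change -0.40). In shares, 8.33% were higher and 33.3% lower, against 15.2% and 11.8% of all tested genes. The list covers pathways that supply NADPH, and not each of its enzymes makes NADPH itself. Not called were G6pdx (-0.43 ± 0.19 on the log2 scale), Pgd (-0.37 ± 0.26), Idh1 (-0.19 ± 0.21) and Idh2 (-0.99 ± 0.46). Rpia (-0.15 ± 0.21), Mthfd1 (0.07 ± 0.16) and Aldh1l1 (0.39 ± 0.22) were not called either. Tkt averaged 19.7 ± 9.30 FPKM in TAD (SD, n = 3) and 96.6 ± 23.8 FPKM in control (SD, n = 5; edgeR adjusted p = 0.00262). The malic enzyme gene Me1 had -1.58 ± 0.34 (adjusted p = 0.0106) and Taldo1, of the pentose phosphate pathway, -0.76 ± 0.19 (adjusted p = 0.0187). Taldo1 was not called without TAD 1 (-0.68, adjusted p = 0.0688). Mthfd2, of mitochondrial folate metabolism, was the one that rose, with 5.04 ± 0.947 FPKM in TAD and 0.943 ± 0.228 FPKM in control, or 2.38 ± 0.24 on the log2 scale (adjusted p = 0.000507). Adipocyte markers were also lower in TAD. The 9 markers summed to 3500, 4380 and 3530 CPM in TAD 1, 2 and 3, against 11000 to 12400 CPM in control, 6 were called lower and none was at 0. Within TAD, Tkt and Me1 were highest in TAD 3, and Taldo1 and the marker sum in TAD 2. The part of adipocytes in the fall of Tkt, Me1 and Taldo1 was not tested.

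In the thioredoxin and peroxiredoxin list outside the 10 genes, 4 of 19 rose, 3 fell and 12 were not called (median log2 fold change 0.02). The shares of 21.1% higher and 15.8% lower lie near those of all genes, 15.2% and 11.8%. Its 7 calls fell to 3 without TAD 1 or control 1, to 4 without TAD 2, control 4 or control 5, and to 2 without both control 1 and TAD 1. Glutaredoxin Glrx rose to 9.54 ± 1.64 FPKM in TAD (SD, n = 3), against 2.26 ± 0.857 FPKM in control (SD, n = 5), or 2.03 ± 0.28 on the log2 scale (edgeR adjusted p = 0.0017). Thioredoxin itself, Txn1, rose by 0.88 ± 0.16 (adjusted p = 0.00528), and Txnip, which codes for a protein that binds and inhibits thioredoxin, fell, with -1.16 ± 0.32 (adjusted p = 0.0299). A gene on the opposite strand covers 19.4% of the exon bases of Txnip. The call of Txnip was lost without TAD 1, TAD 3 or control 1, 3 or 4 (-1.29 to -0.87, adjusted p of 0.0525 to 0.0644). Of 26 tested genes that complete, use or break down glutathione, 2 rose, 5 fell and 19 were not called (median log2 fold change -0.30). That is 7.69% higher and 19.2% lower, beside the 15.2% and 11.8% of all genes. These 7 calls fell to 4 without both control 1 and TAD 1. Chac1, which cleaves glutathione, rose by 1.74 ± 0.41 (adjusted p = 0.0152), a call lost without TAD 1 (1.37, adjusted p = 0.0704). The transferase genes Gstm1 (-1.68 ± 0.15, adjusted p = 0.000367) and Gstt1 (-1.41 ± 0.32, adjusted p = 0.0138) fell, and Gstt1 was not called without TAD 1 (-1.40, adjusted p = 0.0511). Glutathione transferase genes have close paralogs, so their counts are uncertain.

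Of 9 tested genes of cystine and cysteine supply, 3 rose, 4 fell and 2 were not called (median log2 fold change -0.76). Shares of 33.3% higher and 44.4% lower stood against 15.2% and 11.8% of all tested genes. Slc7a5, another light chain of Slc3a2 that carries large neutral amino acids, rose to 7.94 to 14.5 FPKM in TAD, against 1.08 to 2.44 FPKM in control (2.74 ± 0.31, edgeR adjusted p = 0.000807). On the route from cysteine to taurine, Cdo1 (-2.03 ± 0.16, adjusted p = 0.000207) and Csad (-1.93 ± 0.25, adjusted p = 0.00124) fell. Mpst, of cysteine breakdown to pyruvate, fell as well (-1.68 ± 0.22, adjusted p = 0.00125). Cdo1 had 40.1 to 48.1 FPKM in TAD and 161 to 191 FPKM in control, where the adipocyte markers given with the NADPH genes were also higher, and the part of those cells was not tested.

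Slc7a11 is also known to respond to ATF4, and other genes known to do so were read beside it. Of 13 tested, 3 rose, 3 fell and 7 were not called (median log2 fold change 0.17). Of this list 23.1% were higher and another 23.1% lower, against 15.2% higher and 11.8% lower of all tested genes. The 6 calls of this list fell to 3 without TAD 1, and also to 3 without both control 1 and TAD 1. Atf4, chosen after its values were seen, rose to 52.5 ± 10.9 FPKM in TAD (SD, n = 3), against 25.3 ± 3.47 FPKM in control (SD, n = 5), or 1.02 ± 0.16 on the log2 scale (edgeR adjusted p = 0.00285). Slc7a5 and Chac1 were the other genes that rose. Vldlr (-2.21 ± 0.26, adjusted p = 0.000864) and the serine synthesis gene Phgdh (-1.17 ± 0.29, adjusted p = 0.0193) fell. Phgdh was not called without TAD 1 (-1.07, adjusted p = 0.0644) or TAD 3 (-1.02, adjusted p = 0.0549).

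Library totals ran from 12042971 to 15039132 counts. Libraries differed in other tissue: cardiomyocyte markers (7 of 8 in the table) summed to 31.5 to 11300 CPM in TAD and 42.5 to 17200 CPM in control, highest in TAD 1 and control 1. The 5 neuronal and Schwann cell markers in the table summed to 1550 CPM in TAD 2, against 78.5 to 158 CPM in control and at most 104 CPM in the other TAD libraries. The 9 smooth muscle markers summed to 827 to 4910 CPM in TAD and 2560 to 12100 CPM in control, with none at 0. Of these 1 (Synpo2) was called lower and 8 were not called. Without control 1 and TAD 1, 5 of the 10 genes were called, against 14.3% of all genes in that fit. Without control 1, control 2 and TAD 2, 6 of the 10 were called, against 22.0% of all genes.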

How the data were processed

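The authors deposited 1 table of the 8 libraries with, per the file headers, raw counts per gene and FPKM values. RNA was extracted with TRIpure and 200 ng went into NEBNext Ultra libraries, per the labels' protocols; no source used here gives the strandedness. HISAT2, HTSeq, bcl2fastq 2.19 and fastp 0.23.1 are listed, without their roles, per the submitters' processing notes, with human builds (GRCh38, hg38) although the gene identifiers are those of mouse; coordinates are from GENCODE M21 (GRCm38).

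Counts were filtered (filterByExpr), scaled by TMM and tested with edgeR 4.0.16 in R 4.3.3 (quasi-likelihood F test, no covariate, Benjamini-Hochberg over 13701 genes, threshold 0.05). SE is the log2 fold change over the square root of F. Ratios of FPKM were tested by exact permutation over 56 splits. Alternatives used DESeq2 1.42.0, limma 3.58.1, other scalings, no filter, a replicate block and libraries left out. The tests by edgeR, DESeq2 and limma on FPKM were run on counts simulated with the same dispersion for all genes. The permutation test was not checked in this way. Genes named were the 10 members, ratio partners, per list at most 4 called genes, those that changed most (or the 2 most expressed where fewer than 2 were called) and the 5 most alike in pattern. Members, lists, ratios and left-out libraries were chosen with earlier results of these data known.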

Additional observations from a re-analysis of the deposited data

How the results depend on the processing

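Of the 10 genes, 5 to 8 were called under the 18 alternatives (7 in the reported test): 8 by DESeq2 (34.5% of all genes), 6 by limma on log2(TPM + 1) (21.8%) and 5 to 7 with 1 library left out (18.5% to 27.1%). Slc7a11, Gclm, Srxn1, Txnrd1 and Gsr stayed called under all 18; Slc7a11 had 1.57 by limma on log2(FPKM + 1), a scale that shrinks low levels. Nfe2l2 turned to -0.05 without control 1 and TAD 1. Over all genes 3705 were called, 1963 without control 1 and TAD 1, 4732 by DESeq2 and 2549 to 3728 with 1 library left out. TPM moved the median log2 fold change of all genes from 0.04 to -0.13 and the share of higher calls from 56.2% to 36.6%. The log2 ratio differences with 1 library left out were 5.81 to 6.86 for Slc7a11 over Slc3a2 and 1.79 to 2.16 for Txnrd1 over Txnrd2 (adjusted p of 0.0571 to 0.0952 in both), 0.38 to 0.84 for Gclm over Gclc and -0.29 to 0.00 for Prdx1 over Prdx2. Without control 1 and TAD 1 they were 6.72 and 1.73 (adjusted p = 0.0889), and without control 1, control 2 and TAD 2 6.79 and 2.14 (adjusted p = 0.20). With fewer libraries the smallest exact p is larger, so these lost calls say nothing on stability. Of 35 other named genes 32 were called; 15 of these kept the call under all alternatives and 17 lost it under at least 1. Keap1, not called, ran from -0.19 to 0.04 with 1 library left out.

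Replicate numbers are shared by the groups, and the deviations of same-numbered libraries correlated at 0.427, 0.0972 and 0.544. TAD 1 and TAD 3 correlated best with the control of their own number, and TAD 2 with control 1 (0.362). With 3 TAD libraries these values cannot decide whether the numbers pair the libraries. With the replicate block 1255 genes (9.16%) and 6 of the 10 were called, as were 1 of the 13 regulators, 9 of the 27 other targets, 3 of the 19 thioredoxin and 3 of the 12 NADPH genes, and the paired differences of the log2 ratio were 6.10 for Slc7a11 over Slc3a2 and 1.90 for Txnrd1 over Txnrd2 (exact p = 0.25, the smallest 3 pairs can give). The block ended 10 calls of the other named genes. Leaving out control 1 and TAD 1 ended 12, of Maff, Nfe2l1, Bach1, Rbx1, Ugdh, Txnip, Txnrd2, Chac1, Gstt1, Taldo1, Phgdh and Mettl1. Leaving out control 1, control 2 and TAD 2 ended 7, of Nfe2l1, Rbx1, Gsta4, Txnrd2, Me1, Ftl1 and Fth1. Limma on TPM ended 5, of Bach1, Rbx1, Ugdh, Txn1 and Mettl1, and brought the regulators to 2 calls and the thioredoxin list to 4. Upper-quartile scaling ended that of Rbx1. Depth limited Slc7a11 in control, at 0 to 7 counts per library.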
